A study of Mus musculus with 12 samples.

Results

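The genes described here are 10 members of the ErbB signaling system, chosen by symbol from the 24421 gene symbols counted in each library. They comprise 3 receptors (Egfr, Erbb2, and Erbb3), 6 ligands (Egf, Tgfa, Areg, Ereg, Hbegf, and Btc), and the receptor inhibitor Errfi1. All 10 symbols were present, and 9 passed the filter on low counts in every comparison, whereas Ereg did not. Poly(A) RNA of 6 liver tumors was compared with that of 6 non-tumoral livers, 1 of each per mouse. The 4 p21+/Tert mice carry Tert, the catalytic subunit of telomerase, under the Cdkn1a (p21) promoter, and gave the tumors T-HCA992, T-HCC941, T-HCC662, and T-HCC663. The 2 p21+/TertCi mice carry a catalytically inactive Tert under that promoter and gave TCi-HCC981 and TCi-HCA984. All mice were over 18 months old and on a standard diet, and the study's wild-type strain was C57BL/6J N. Each mouse gave 1 tumor, and every control liver carried the transgene and came from a tumor-bearing mouse, so that these controls hold no wild-type and no tumor-free liver. The sex of the mice is not given in the sources used here. Mutation classes follow the study, which lists Ctnnb1 in T-HCC662 and T-HCC663, Egfr in T-HCC941, Hras in TCi-HCC981, and neither Ctnnb1, Egfr, nor Hras in T-HCA992 and TCi-HCA984. HCC in a tumor name stands for hepatocellular carcinoma and HCA for adenoma, and the histology list of the study gives T-HCC663 as an adenoma.

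ErbB receptors are membrane tyrosine kinases that pair with each other when a ligand binds and pass the signal through Ras to ERK, and through other routes. EGF, TGFA, and AREG bind EGFR, and BTC, HBEGF, and EREG bind EGFR and ERBB4. The neuregulins bind ERBB4, and some of them also bind ERBB3. ERBB2 has no known ligand of its own and ERBB3 has little kinase activity, so both act mainly as partners. In the liver, EGFR is abundant on hepatocytes and takes part in regeneration after tissue loss. Errfi1 encodes MIG6, which binds the kinase domain of EGFR, inhibits it, and favors its removal from the membrane.

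Ereg, Areg, and Btc lie within 328 kb of chromosome 5 (GRCm38, positions 91074622 to 91402994). Egfr and Erbb2 are on chromosome 11, Erbb3 on chromosome 10, Egf on chromosome 3, Tgfa on chromosome 6, and Errfi1 on chromosome 4. The 250 bases before the RefSeq transcription start are shown for the 3 ligands that were up-regulated in the tumors, and for Errfi1, whose second RefSeq start shares motifs with Areg. The windows are on GRCm38.p6, at chr5:91139349-91139598 (plus strand) for Areg, chr5:91402995-91403244 (minus strand) for Btc, chr6:86194972-86195221 (plus strand) for Tgfa, and chr4:150854820-150855069 (plus strand) for Errfi1. Capitals mark a match to the cyclic AMP response element (CRE) or to the TATA box.
Areg: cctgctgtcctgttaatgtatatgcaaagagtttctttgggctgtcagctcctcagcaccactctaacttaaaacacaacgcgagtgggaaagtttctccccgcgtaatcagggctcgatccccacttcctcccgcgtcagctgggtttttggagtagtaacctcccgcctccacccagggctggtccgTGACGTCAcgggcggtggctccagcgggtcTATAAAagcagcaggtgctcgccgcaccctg
Btc: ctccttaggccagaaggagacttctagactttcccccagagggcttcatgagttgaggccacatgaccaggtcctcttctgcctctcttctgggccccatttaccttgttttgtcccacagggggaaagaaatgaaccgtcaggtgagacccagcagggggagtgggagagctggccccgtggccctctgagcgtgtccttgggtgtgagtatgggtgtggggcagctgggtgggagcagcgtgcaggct
Tgfa: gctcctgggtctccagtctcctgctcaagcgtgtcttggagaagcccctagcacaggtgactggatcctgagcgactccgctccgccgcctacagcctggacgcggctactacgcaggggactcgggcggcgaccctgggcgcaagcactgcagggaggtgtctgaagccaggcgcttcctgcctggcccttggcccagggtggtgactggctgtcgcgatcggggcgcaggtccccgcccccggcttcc
Errfi1: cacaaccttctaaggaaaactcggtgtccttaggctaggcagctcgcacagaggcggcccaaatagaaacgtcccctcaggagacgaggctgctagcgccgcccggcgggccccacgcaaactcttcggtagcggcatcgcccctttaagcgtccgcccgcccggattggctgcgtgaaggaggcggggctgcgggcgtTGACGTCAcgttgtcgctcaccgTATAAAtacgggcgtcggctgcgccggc
The Areg window holds TGACGTCA beginning 61 bases before the start and TATAAA beginning 31 bases before it, and the Errfi1 window holds the same motifs at 51 and 28 bases. This Errfi1 window was chosen for its matches. The window of the first Errfi1 start (chr4:150853546-150853795) holds none of the motifs searched. Of 32851 windows of this length in the table, 1.55% hold TGACGTCA and 12.4% hold TATAAA on either strand. The Btc and Tgfa windows hold neither, and none of the 4 windows holds the AP-1 motif TGANTCA (6.75% of windows), the TCF/LEF motif CTTTGAT (3.21%), or the ETS motif CCGGAAGT (2.88%). Among the members searched but not shown, an Egf window holds the ETS motif, and those of Egfr and Erbb2 hold no match. These matches are descriptions of letters and do not show binding.

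The libraries held between 14571716 and 26170661 counted reads, with 14571716 to 23932529 in livers and 17471387 to 26170661 in tumors. The hepatocyte markers Alb, Ttr, Apoa1, Apob, Serpina1c, Tat, Cps1, and Hnf4a were detected in the libraries of both tissues, and their summed level was 34870 to 59360 CPM in livers and 18550 to 99360 CPM in tumors. CPM stands here for reads per 1000000 after edgeR's TMM scaling. Ddx3y, a Y-linked gene, was between 36.3 and 88.5 CPM in the 12 libraries, and Xist, which silences an X chromosome in females, was at 1.46 CPM or less. The liver of the TCi-HCC981 mouse stood apart in macrophage markers, with a summed level of 892 CPM against 97.3 to 201 CPM in the other livers.

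In tumors against livers, the ligands Btc, Tgfa, and Areg were up-regulated, whereas the receptors and Errfi1 did not pass the test. Of the 9 genes tested, 3 were called higher and 0 lower by edgeR's quasi-likelihood test with Benjamini-Hochberg adjustment at 0.05, where 6.77% of all 13822 tested genes were called higher and 3.91% lower. At an unadjusted p under 0.05 the count was 5, with Hbegf higher and Egf lower beside those 3, and DESeq2 called the same 5. Areg had at most 4 reads in any liver and entered the test only through the tumors, so its presence among those tested presupposes its difference. The median log2 fold change of the 9 genes was -0.43 and that of all genes tested was 0.01. P-values measure the spread between the mice of this series.

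**Figure D1:**
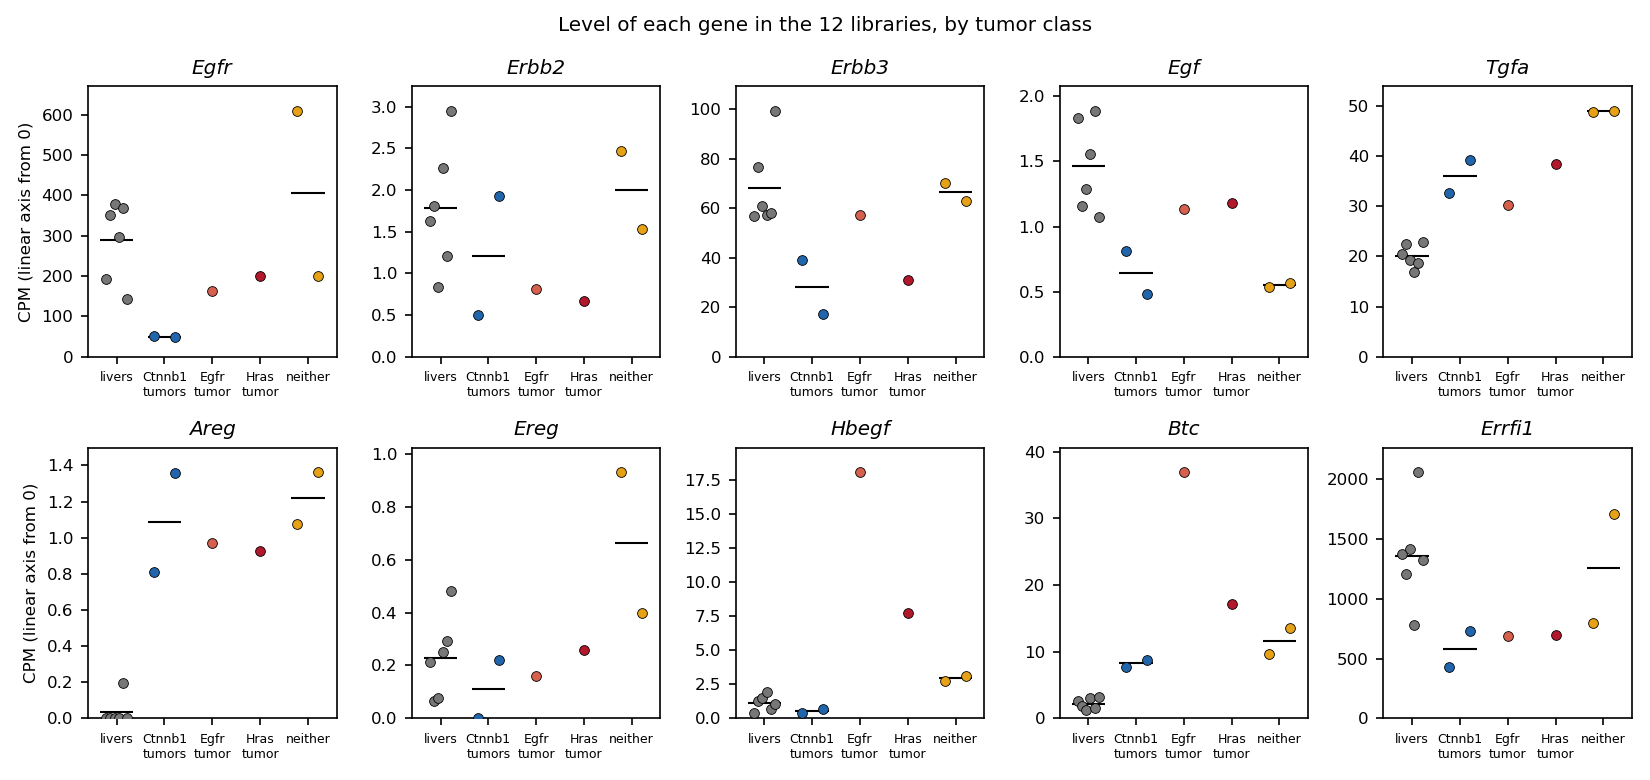
Level of each of the 10 genes in CPM (linear axes from 0, a scale for each panel) in the 6 non-tumoral livers and in tumors grouped by mutation. Points are libraries and black lines are means of groups with more than 1 library. The blue Ctnnb1 points lie at 50.7 and 48.8 CPM for Egfr, below all livers, while all tumor points for Tgfa, Areg, and Btc lie above all livers.

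Egfr, the receptor shared by the 6 ligands, ranged from 143.6 to 379 CPM in livers with a median of 324.9 CPM. The Ctnnb1 tumors held 50.7 CPM (T-HCC662) and 48.8 CPM (T-HCC663). It was 162 CPM in T-HCC941, 199 CPM in TCi-HCC981, 199 CPM in TCi-HCA984, and 610 CPM in T-HCA992. The Ctnnb1 tumors were thus below every liver, T-HCA992 was above every liver, and the other 3 tumors lay within the range of the livers. In bulk tissue, fewer cells that express a gene and less of its RNA per cell cannot be told apart. Over all 6 tumors the log2 fold change was -0.45 (SE 0.54), with an adjusted p of 0.641 in edgeR's quasi-likelihood test, and 5 of 6 tumors were below their own liver. T-HCA992 was the exception, at 4.25 times the level of its own liver, which had the lowest Egfr of the 6 livers. Egfr overlaps the antisense gene Egfros, and the strand setting of the counting is not given in the sources used here, so that reads of both cannot be told apart.

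In the Ctnnb1 tumors Egfr was 49.8 ± 1.36 CPM (SD, n = 2), against 289 ± 99.1 CPM in livers (n = 6) and 293 ± 212 CPM in the other tumors (n = 4). It was down-regulated against livers (log2 fold change -2.56, SE 0.52, adjusted p = 0.0127 by edgeR's quasi-likelihood test) and against the other tumors (log2 fold change -2.45, SE 0.52, adjusted p = 0.0147 by the same test). In a fit with mouse as a block, which compares each tumor with its own liver (the paired fit), the log2 fold changes were -2.40 and -2.24, and the adjusted p of edgeR's test rose to 0.084 and 0.194. Leaving out T-HCC662 gave adjusted p of 0.0961 and 0.103 and leaving out T-HCC663 gave 0.0947 and 0.0844, with 1 Ctnnb1 library left in each case. In the other tumors against livers, the log2 fold change of Egfr was -0.12 (SE 0.34, adjusted p = 0.842 by edgeR's test).

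Erbb3, a receptor that signals through its partners, was 56.7 to 99.3 CPM in livers with a median of 59.5 CPM. It was 17.4 CPM in T-HCC663, 39.1 CPM in T-HCC662, 31.0 CPM in TCi-HCC981, 57.1 CPM in T-HCC941, 62.9 CPM in TCi-HCA984, and 70.2 CPM in T-HCA992. Both Ctnnb1 tumors and TCi-HCC981 were below every liver, and the remaining tumors lay inside the range of the livers. In Ctnnb1 tumors against livers Erbb3 was down-regulated by 1.29 (log2 fold change -1.29, SE 0.35, adjusted p = 0.0445 by edgeR's test). That call was lost in the paired fit (adjusted p = 0.0981), without T-HCC663 (log2 fold change -0.81, adjusted p = 0.339), and with any 1 of 7 other libraries left out (the livers of all p21+/Tert mice and of the TCi-HCA984 mouse, T-HCA992, and TCi-HCA984), where the adjusted p was between 0.0527 and 0.0744. Against the other tumors the log2 fold change was -0.95 (SE 0.36, adjusted p = 0.104), and over all tumors against livers it was -0.56 (SE 0.30, adjusted p = 0.251), by edgeR's test.

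Erbb2, the receptor without a ligand, had between 11 and 69 reads in each library. Its level was 0.834 to 2.95 CPM in livers (median 1.72 CPM) and 0.496 to 2.47 CPM in tumors (median 1.17 CPM), and the groups overlapped. The log2 fold change was -0.43 (SE 0.44, adjusted p = 0.579 by edgeR's test), and 2 of 6 tumors were above their own liver. Erbb2 overlaps Mien1.

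Btc, which encodes betacellulin, was 1.29 to 3.17 CPM in livers with a median of 2.17 CPM. It was 8.81 CPM in T-HCC663, 7.66 CPM in T-HCC662, 17.2 CPM in TCi-HCC981, 36.9 CPM in T-HCC941, 13.6 CPM in TCi-HCA984, and 9.67 CPM in T-HCA992. All tumors were above all livers, with T-HCC941 highest, and each tumor was above its own liver by 3.01 to 28.6 times. Of all tested genes, 2.93% were higher in every tumor than in every liver (2.18% lower), and 11.0% were higher than in the own liver in all 6 mice. The log2 fold change was 2.80 (SE 0.42, adjusted p = 0.00188 by edgeR's quasi-likelihood test), which is 6.98-fold. The call held under the 4 alternative fits and without each of the 12 libraries in turn, with log2 fold changes of 2.35 to 2.96.

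Within the classes Btc was up-regulated in the Ctnnb1 tumors by 1.86 on the log2 scale (SE 0.36, adjusted p = 0.0104) and in the other tumors by 2.98 (SE 0.31, adjusted p = 0.000153), both against livers in edgeR's test. In the paired fit the adjusted p was 0.114 in the Ctnnb1 tumors, with a log2 fold change of 1.91, and without T-HCC662 or T-HCC663 it was 0.0537 or 0.0689. Between Ctnnb1 and other tumors the log2 fold change was -1.12 (SE 0.42), which did not pass edgeR's test (adjusted p = 0.104) and passed DESeq2's (adjusted p = 0.0474).

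Tgfa, which encodes transforming growth factor alpha, was 16.8 to 22.8 CPM in livers with a median of 19.9 CPM. It was 39.2 CPM in T-HCC663, 32.6 CPM in T-HCC662, 38.5 CPM in TCi-HCC981, 30.2 CPM in T-HCC941, 49.0 CPM in TCi-HCA984, and 48.8 CPM in T-HCA992. The groups did not overlap, and the tumors differed among themselves by no more than 1.62 times, against 4.82 times for Btc and 12.5 times for Egfr. The log2 fold change was 0.98 (SE 0.15, adjusted p = 0.00235 by edgeR's test), and the call held in the 4 alternative fits and without each of the 12 libraries. The Ctnnb1 tumors (log2 fold change 0.81, SE 0.17, adjusted p = 0.0139) and the other tumors (1.01, SE 0.14, adjusted p = 0.000549) were both above the livers in edgeR's test. The adjusted p in the Ctnnb1 tumors was 0.102 in the paired fit, 0.0507 without T-HCC662, and 0.126 without T-HCC663.

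Areg, which encodes amphiregulin, had 0 reads in 5 of 6 livers and 4 reads in the liver of the TCi-HCA984 mouse. The tumors held 18 reads in T-HCC662, T-HCC941, and TCi-HCC981, 31 in T-HCC663, 24 in TCi-HCA984, and 30 in T-HCA992, or 0.811 to 1.36 CPM. All tumors were above all livers, at levels near 1 CPM that differed little between the mutation classes. In the p21+/Tert livers, where a count of 0 over the group allows up to 3 reads, Areg was at least 25.8-fold higher in the tumors (97 reads against 0). Over all libraries the ratio of mean CPM was 33.6 and the fitted log2 fold change 4.65 (SE 0.77, adjusted p = 0.00302 by edgeR's test), a value that rests on 4 liver reads and reached 7.40 without the liver of the TCi-HCA984 mouse. Between Ctnnb1 and other tumors the log2 fold change was 0.00 (SE 0.92) in edgeR's test. Against livers the Ctnnb1 tumors had an adjusted p of 0.0161 in edgeR's test (0.11 in the paired fit, 0.0519 without T-HCC662, and 0.0876 without T-HCC663), and the other tumors one of 0.0042.

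**Figure D2:**
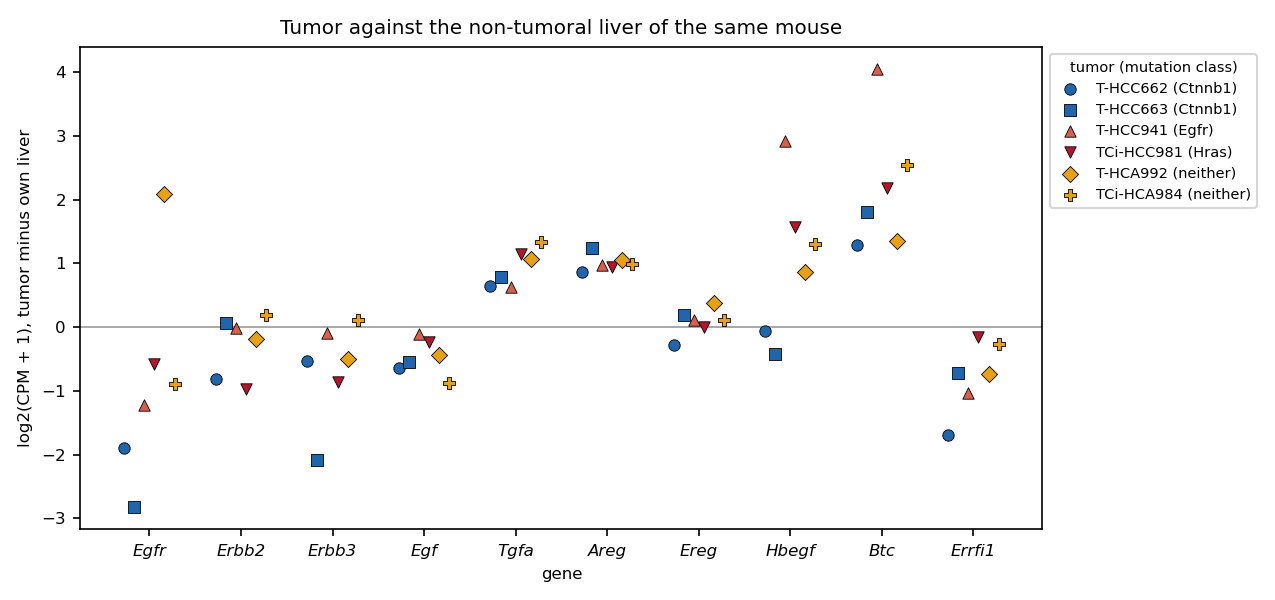
Difference in log2(CPM + 1) between each tumor and the non-tumoral liver of the same mouse (vertical axis) for the 10 genes (horizontal axis), with a symbol for each tumor and a color for each mutation class. The 6 points of Tgfa, Areg, and Btc lie above 0, those of Egf and Errfi1 lie below 0, and the Hbegf points of the Ctnnb1 tumors lie below 0 while the other 4 lie above it.

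Hbegf, which encodes heparin-binding EGF-like growth factor, had 6 to 46 reads in livers, or 0.424 to 1.93 CPM with a median of 1.18 CPM. It had 8 reads in T-HCC662 (0.361 CPM), 16 in T-HCC663 (0.701 CPM), 335 in T-HCC941 (18.1 CPM), 150 in TCi-HCC981 (7.71 CPM), 55 in TCi-HCA984 (3.12 CPM), and 77 in T-HCA992 (2.76 CPM). The 4 tumors without a Ctnnb1 mutation were above every liver, and the Ctnnb1 tumors were at the lower end of the livers. Over all tumors the log2 fold change was 2.22 (SE 0.79), which did not pass edgeR's test (adjusted p = 0.0887) but passed DESeq2's (adjusted p = 0.0185) and edgeR's without T-HCC662 (adjusted p = 0.0318).

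The tumors without a Ctnnb1 mutation had a mean of 7.92 ± 7.14 CPM (SD, n = 4) of Hbegf, against 1.15 ± 0.552 CPM in livers (n = 6). Hbegf was up-regulated in them by 2.39 on the log2 scale (SE 0.42, adjusted p = 0.00256 by edgeR's quasi-likelihood test), a call that held in the 5 alternative fits and without each of the 12 libraries. The Ctnnb1 tumors had 0.531 ± 0.241 CPM (n = 2) and differed from the other tumors by -3.53 on the log2 scale (SE 0.69, adjusted p = 0.00965 by edgeR's test). In the paired fit this difference was -2.87 (adjusted p = 0.0884), and without T-HCC662 it was -3.14 (adjusted p = 0.0943). Against livers the log2 fold change in the Ctnnb1 tumors was -1.14 (SE 0.60, adjusted p = 0.277 by edgeR's test).

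Egf, the founding ligand of the family, had 10 to 39 reads in each library. It was 1.07 to 1.89 CPM in livers (median 1.42 CPM) and 0.482 to 1.18 CPM in tumors (median 0.69 CPM), so that only the upper tumors, T-HCC941 and TCi-HCC981, reached the range of the livers. Each of the 6 tumors was below its own liver, as were 11.5% of all tested genes. The log2 fold change was -0.91 (SE 0.33), which did not pass edgeR's test (adjusted p = 0.0979) and passed DESeq2's (adjusted p = 0.0478). Egf overlaps other annotated genes, among them Gm42697.

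Ereg, which encodes epiregulin, had 0 to 26 reads in each library and did not pass the filter on low counts in edgeR's fits of all 12 libraries, so that no test of it is given. Its level was 0.0645 to 0.483 CPM in livers and 0 to 0.932 CPM in tumors. T-HCA992 was highest with 26 reads, T-HCC662 had none, and the groups overlapped. Ereg overlaps Gm19610.

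Errfi1, the inhibitor of EGFR, had the highest level per length of the 10 genes in both tissues. It was 776 to 2058 CPM in livers with a median of 1349 CPM. The tumors had 427 CPM (T-HCC662), 732 CPM (T-HCC663), 689 CPM (T-HCC941), 698 CPM (TCi-HCC981), 1711 CPM (TCi-HCA984), and 794 CPM (T-HCA992). Of the tumors, 4 were below every liver, T-HCA992 was just above the lowest liver (that of the TCi-HCC981 mouse), and TCi-HCA984 was above all but the liver of its own mouse. Each of the 6 tumors was below its own liver, at 0.31 to 0.899 of its level. The log2 fold change was -0.70 (SE 0.34), which did not pass edgeR's test (adjusted p = 0.216) and passed it without TCi-HCA984 (-1.04, adjusted p = 0.0342). In the Ctnnb1 tumors against livers it was -1.26 (SE 0.43, adjusted p = 0.1 by edgeR's test, 0.0145 by DESeq2), and in the p21+/Tert mice -1.03 (SE 0.39, adjusted p = 0.142 by edgeR's test, 0.0472 by DESeq2). The paired fit of edgeR did not call Errfi1 over all tumors (adjusted p = 0.0733), in the Ctnnb1 tumors (0.129), or in the p21+/Tert mice (0.0578). Over all tumors, 0 of the 4 alternative fits and 1 of the 12 fits that left out a library called it. Errfi1 overlaps 1700045H11Rik.

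Per kb of exon, which allows levels to be compared between genes, Errfi1 was first in livers with a median of 377 CPM per kb, followed by Egfr (28.7), Erbb3 (9.9), and Tgfa (3.07 CPM per kb). Btc (0.481), Erbb2 (0.329), Hbegf (0.244), Egf (0.126), and Ereg (0.0562) followed, and Areg had a median of 0 CPM per kb. The ranges of Btc, Erbb2, Hbegf, and Egf in livers overlapped with that of at least 1 neighbour in this order. In the Ctnnb1 tumors Tgfa (5.54), Erbb3 (4.69), and Egfr (4.4 CPM per kb) lay close together, so that Egfr was the fourth of the 10 genes. In the other tumors Egfr kept the place after Errfi1, with a median of 17.6 CPM per kb (range 14.3 to 53.9).

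By mutation class, the Ctnnb1 tumors had 3 members called higher (Areg, Btc, and Tgfa) and 2 called lower (Egfr and Erbb3) than livers by edgeR's test, where 5.0% of 15182 tested genes were higher and 3.2% lower (8.2% in either direction). The tumors without a Ctnnb1 mutation had 4 called higher (Areg, Btc, Tgfa, and Hbegf) than livers, where 11.3% were called higher, and 0 lower, where 11.5% were. In that comparison 5 members, as 36.1% of all genes, had an unadjusted p under 0.05 in edgeR's test, among them Egf (log2 fold change -0.89, SE 0.37, adjusted p = 0.102), and DESeq2 called 4 members. Against the other tumors the Ctnnb1 tumors had 2 called lower (Egfr and Hbegf), where 5.72% of genes were called lower and 6.76% higher. In the paired fit 0 members were called for the Ctnnb1 tumors against livers or against the other tumors by edgeR, and 4 were called for the tumors without a Ctnnb1 mutation. Without T-HCC662 the count of the Ctnnb1 tumors against livers was 1 and without T-HCC663 it was 0, and those against the other tumors were 0 and 1. Areg passed the filter only through the tumors, and without it the counts of members called higher than livers were 2 for the Ctnnb1 tumors and 3 for the other tumors. The comparisons with livers share the same 6 livers.

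Without any test, 3 members (Tgfa, Areg, and Btc) were higher in both Ctnnb1 tumors than in all livers and 4 (Egfr, Erbb3, Egf, and Errfi1) were lower, where 13.1% and 12.0% of all genes were so. In the tumors without a Ctnnb1 mutation 4 members (Tgfa, Areg, Hbegf, and Btc) were above all livers and 0 below them, against 8.96% and 7.36% of all genes. Egfr, Hbegf, and Btc were lower in both Ctnnb1 tumors than in the other 4 tumors, as were 19.0% of all genes, and 0 members were higher, as were 18.5%.

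**Figure D3:**
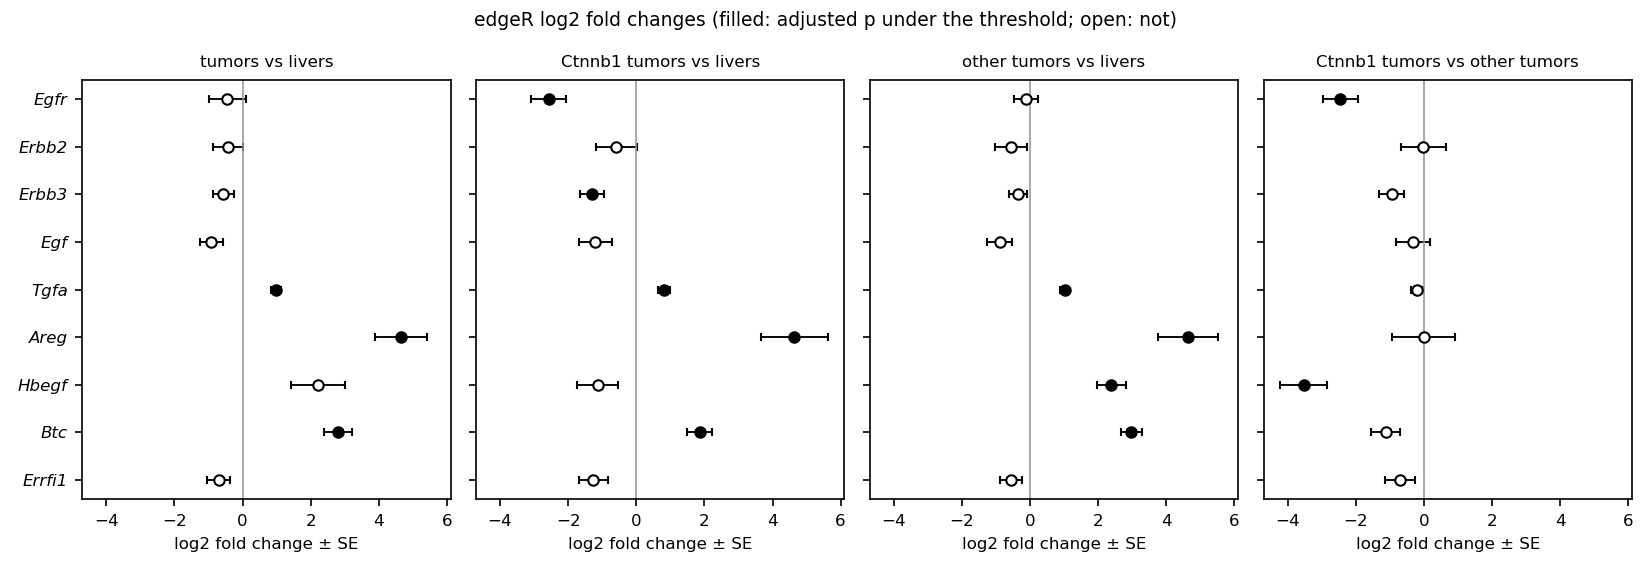
Fitted log2 fold changes with SE (horizontal axes) of the 9 tested genes in 4 comparisons of edgeR, filled where the adjusted p was under 0.05. Egfr lies at -2.56 in Ctnnb1 tumors against livers and at -0.12 in the other tumors against livers, while Tgfa, Areg, and Btc are filled and above 0 in the comparisons with livers.

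T-HCC941, which carries an Egfr mutation, and TCi-HCC981, which carries an Hras mutation, are 1 tumor each, so neither mutation could be tested alone. T-HCC941 had the highest Btc and Hbegf of the 12 libraries, at 28.6 and 11.9 times its own liver, while its Egfr was 0.428 of its own liver. TCi-HCC981 had the second highest level of both ligands, at 5.75 and 3.99 times its own liver, with Egfr at 0.669 of it. The tumors with neither mutation had Hbegf at 2.57 (T-HCA992) and 4.6 (TCi-HCA984) times and Btc at 3.06 and 9.03 times their own livers, so that relative to its own liver TCi-HCA984 was above TCi-HCC981 in both ligands. As a pair, the Egfr and Hras tumors differed from those with neither by 2.10 (SE 0.66) in Hbegf, 1.19 (SE 0.47) in Btc, -1.19 (SE 0.54) in Egfr, and -0.54 (SE 0.21) in Tgfa on the log2 scale. Of 9 members 0 were called by edgeR's test, where 0.0% of all genes were, and the adjusted p of these 4 was 0.495, 0.542, 0.565, and 0.541. These 4 had an unadjusted p under 0.05, as did 8.77% of all genes, and DESeq2 called 0 members. Egf, Hbegf, and Btc were higher in both of these tumors than in those with neither mutation and the other 6 tested members were lower, where 20.2% and 20.0% of all genes were so. By their names the first pair are carcinomas and the second adenomas, so that mutation and tumor type cannot be told apart. Summed lymphocyte markers were 35.5 and 30.5 CPM in the Egfr and Hras tumors against 6.31 and 2.9 CPM in T-HCA992 and TCi-HCA984, with a median log2 fold change of 2.42 over the 8 markers. The median was 1.68 for 7 macrophage markers and -2.43 for 5 tested cholangiocyte markers, 0 of these markers were called by edgeR's test, and their part in the ligand values was not tested.

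The genotypes were compared in the same way. In p21+/Tert tumors against p21+/Tert livers (4 against 4), Btc (log2 fold change 2.81, SE 0.55, adjusted p = 0.0156), Tgfa (0.81, SE 0.18, adjusted p = 0.0268), and Areg (adjusted p = 0.0174) were up-regulated by edgeR's test, where 4.2% of genes were called higher and 2.3% lower (6.49% in either direction). Areg, with 0 reads in these livers, again passed the filter only through the tumors, and the paired fit lost it (adjusted p = 0.0604), which leaves 2 members. Without the liver of the T-HCC662 mouse the count of members called was 0, and without that of the T-HCC663 or T-HCC941 mouse it was 1, with adjusted p of 0.0517 to 0.0576 for Btc. Tgfa was also lost without T-HCA992 (adjusted p = 0.0528). In p21+/TertCi tumors against p21+/TertCi livers (2 against 2), 0 members were called by edgeR, where 0.0% of genes were. There, 3 members and 1618 of all genes had an unadjusted p under 0.05, with log2 fold changes of 1.28 for Tgfa (SE 0.26, adjusted p = 0.2), 2.75 for Btc (SE 0.77, adjusted p = 0.271), and 3.50 for Areg (SE 1.22, adjusted p = 0.397), and DESeq2 called Tgfa and Btc (adjusted p = 0.00127 and 0.0178). The difference between the genotypes was not called for any member in edgeR's interaction test (adjusted p of 1.0 for all 9), where 0.0% of genes were called. It was -0.05 (SE 0.90) for Btc and 0.47 (SE 0.32) for Tgfa, 0 members had an unadjusted p under 0.05 (3.66% of all genes did), and DESeq2 called 0 of the 2 members it tested.

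The median difference of all tested genes on the chromosome of a member was set beside that of the member. On chromosome 5, which holds Btc, Areg, and Ereg, the median log2(CPM + 1) difference between tumor and own liver over 853 genes was 0.20 in T-HCC941, -0.16 in TCi-HCC981, and -0.03 to 0.03 in the other tumors. The Btc difference in T-HCC941 was 4.05 on that scale. On chromosome 11 the median over 1122 genes was -0.05 to 0.05, beside Egfr differences of -2.83 to 2.08. On chromosome 18 it ranged from -0.17 to 0.30 and was 0.09 in T-HCC941 and 0.30 in TCi-HCC981, beside Hbegf differences of 2.92 and 1.57. On chromosome 4 it was lowest in T-HCC662, at -0.28, beside an Errfi1 difference of -1.69. In TCi-HCC981 the chromosome 4 median was -0.16, beside an Errfi1 difference of -0.15. From exome data the study lists a chromosome 4 loss in T-HCC662 and TCi-HCC981. It also lists a chromosome 5 gain in T-HCC941 and TCi-HCC981, and the chromosome 5 median of -0.16 in TCi-HCC981 is opposite in sign to a gain. The part of copy number in the values of the members was not tested.

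Other genes of the pathway were taken from lists of receptors and ligands, shedding factors, inhibitors, signal carriers, and ERK-responsive genes. Of the other ErbB receptors and ligands (Erbb4, Nrg1, Nrg2, Nrg3, Nrg4, and Epgn), 2 passed the filter. Nrg1, a ligand of ERBB3, was 0 to 0.607 CPM in livers and 1.9 to 13.5 CPM in tumors, with no overlap, and was up-regulated by 4.65 on the log2 scale (SE 0.79, adjusted p = 0.00354 by edgeR's test). With 0 to 10 reads in a liver and 37 to 377 in a tumor, Nrg1 passed the filter only through the tumors, as Areg did, so its call is no independent support. Nrg4, the other gene that passed the filter, was not called. Its mean was 11.2 CPM in livers and 11.1 CPM in tumors, and it was above its own liver in 3 of 6 mice. Nrg3 had 0 reads in the 12 libraries, and Erbb4 had at most 8 in a library. Of 4 shedding factors, 2 were up-regulated in tumors, where 6.77% of all genes were, namely Rhbdf1 (log2 fold change 1.29, SE 0.18, adjusted p = 0.00158) and Rhbdf2 (0.91, SE 0.24, adjusted p = 0.0284 by edgeR's test), whose iRhom products carry the ligand-releasing protease ADAM17. Rhbdf1 was 11.1 to 20.8 CPM in livers and 26.1 to 49.2 CPM in tumors. Adam17 itself was not called, with means of 54.7 CPM in livers and 48.9 CPM in tumors. It was above its own liver in 1 of 6 mice. Adam10, also not called, had means of 33.0 and 44.6 CPM and was above its own liver in 6 of 6 mice. Rhbdf2 lost its call when any 1 of 7 libraries was left out (adjusted p of 0.0502 to 0.0649), namely the livers of the T-HCC662, T-HCC663, T-HCA992, and TCi-HCA984 mice and the tumors T-HCC941, T-HCA992, and TCi-HCC981.

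Among 13 genes of receptor turnover and inhibition, Lrig3 was down-regulated in tumors (log2 fold change -0.75, SE 0.19, adjusted p = 0.026 by edgeR's test), and the median log2 fold change of the list was 0.04. Among 23 genes that carry the signal downstream, Mapk3, which encodes ERK1, was up-regulated (0.69, SE 0.13, adjusted p = 0.00532) and Sos1, an activator of Ras, was down-regulated (-0.53, SE 0.14, adjusted p = 0.0296). The first list thus had 1 gene called lower and 0 higher, and the second had 1 in each direction. Of all genes 6.77% were called higher and 3.91% lower, and counts of 1 do not stand apart from these shares. Lrig3 lost its call without T-HCC941 or any 1 of the livers of the T-HCC662, T-HCC663, and T-HCC941 mice, and Sos1 lost its call without T-HCC663, T-HCC941, T-HCA992, or the livers of the T-HCC662, T-HCC941, and T-HCA992 mice, with adjusted p up to 0.0674 and 0.0761. Of 14 tested ERK-responsive genes 5 were up-regulated, where 6.77% of all genes were, among them the phosphatases Dusp4 (2.86, SE 0.57, adjusted p = 0.00753), Dusp5 (4.03, SE 0.85, adjusted p = 0.0105), and Dusp6 (1.41, SE 0.27, adjusted p = 0.00663), and Ier3 (2.45, SE 0.42, adjusted p = 0.00364), all by edgeR's test. Dusp5 had 1 to 18 reads in a liver, so its place among the tested genes rests largely on the tumors. Its call is therefore no independent support, and the count of 5 includes it. The list was chosen with earlier results of these data known, so its counts and medians are descriptions and no independent evidence. The median of this list was 0.99 on the log2 scale, against 0.01 over all genes. In Ctnnb1 tumors against livers 2 of 15 were called higher (5.0% of all genes) and 1 lower (3.2%), with a median of 0.36. In the tumors without a Ctnnb1 mutation 7 were called higher than livers (11.3% of all genes) and 0 lower (11.5%), with a median of 1.34. In Ctnnb1 tumors against the other tumors, 3 of 15 were down-regulated, namely Spry4 (-4.07, SE 0.71, adjusted p = 0.00615), Dusp5 (-3.77, SE 0.82, adjusted p = 0.0159), and Etv5 (-2.22, SE 0.59, adjusted p = 0.0334), where 5.72% of all genes were called lower, the median of the list was -1.71, and that of all genes was 0.00. In the paired fit Spry4 remained called (adjusted p = 0.00311), whereas Dusp5 (0.0884) and Etv5 (0.0555) were not. Spry4 had an adjusted p of 0.0504 without T-HCC663, Dusp5 of 0.115 without T-HCC662, and Etv5 of 0.0522 to 0.208 with any 1 of the 6 tumors left out.

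The inhibitors Socs5 (log2 fold change -1.99, SE 0.40, adjusted p = 0.011) and Lrig1 (-0.83, SE 0.19, adjusted p = 0.0192), which favor the breakdown of EGFR, and the signal carriers Stat3 (-1.60, SE 0.43, adjusted p = 0.0339) and Shc1 (-0.84, SE 0.24, adjusted p = 0.0444) were lower in the Ctnnb1 tumors than in the other tumors by edgeR's test. They were 2 of 13 genes of turnover and inhibition and 2 of 23 signal carriers, where 5.72% of all genes were called lower. Of both lists 0 genes were called higher, where 6.76% of all genes were. Socs5 remained called in the paired fit (adjusted p = 0.0303), whereas Lrig1 (0.256), Stat3 (0.319), and Shc1 (0.22) did not. Socs5 was lost without T-HCC662 (adjusted p = 0.104), Lrig1 without T-HCC662 or T-HCC663 (0.127 and 0.0781), and Stat3 without T-HCC662, T-HCC663, TCi-HCC981, or TCi-HCA984 (0.0723 to 0.184). Shc1 was lost in 9 of the 12 fits that left out 1 library (0.0567 to 0.278), namely without any 1 of the p21+/Tert libraries or TCi-HCC981, and without T-HCC663 its log2 fold change was -0.57.

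**Figure D4:**
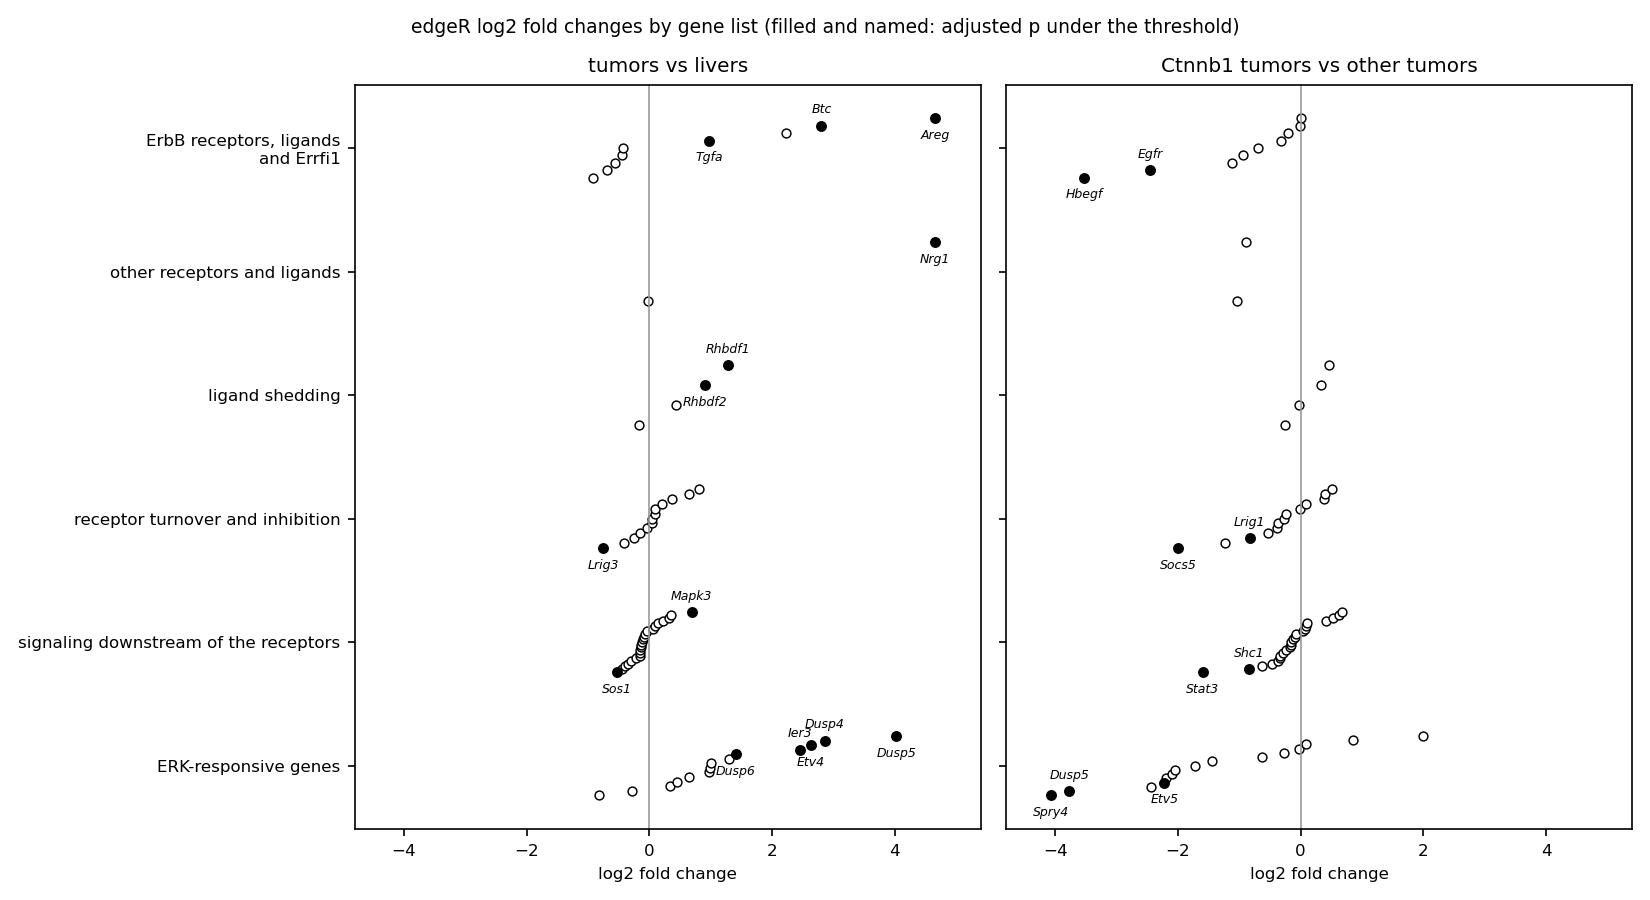
Fitted log2 fold changes of edgeR (horizontal axes) for the tested genes of 6 lists (rows), in tumors against livers on the left and in Ctnnb1 tumors against the other tumors on the right, with genes of adjusted p under 0.05 filled and named. Within a row the height orders the genes by value. On the left the filled ligands and ERK-responsive genes lie above 0, and on the right all filled genes lie below 0, with Spry4 at -4.07 and Hbegf at -3.53.

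Markers of cell types moved with the difference between Ctnnb1 and other tumors. Of 8 hepatocyte markers, 3 were lower in the Ctnnb1 tumors by edgeR's test, where 5.72% of all genes were, namely Cps1 (log2 fold change -3.13, adjusted p = 0.00562), Serpina1c (-2.36, adjusted p = 0.0103), and Alb (-2.47, adjusted p = 0.0394), and the summed level of the list was 18550 to 36540 CPM against 72600 to 99360 CPM. Alb weighed most in that sum, with means of 11300 CPM in the Ctnnb1 tumors, 62400 CPM in the other tumors, and 21090 CPM in livers. Ttr (means of 3332 against 3450 CPM) and Hnf4a (535 against 667 CPM) differed less between the tumor classes. Of 5 tested cholangiocyte markers Sox9 was lower (-3.50, adjusted p = 0.000556), with a summed level of 17.8 to 35.8 CPM against 60.8 to 1065 CPM. Spp1 alone reached 1037 CPM in a tumor, so the upper end of that sum mostly follows Spp1. Krt19, with few reads, went the other way, at a mean of 1.11 CPM in the Ctnnb1 tumors against 0.516 CPM in the other tumors. Of 6 endothelial markers Kdr (-1.94, adjusted p = 0.0339) and Pecam1 (-1.50, adjusted p = 0.0442) were lower, with 50.8 to 95.8 CPM against 133.9 to 255.8 CPM. Of 7 stellate cell and fibroblast markers Des (-2.10, adjusted p = 0.022) and Pdgfrb (-1.78, adjusted p = 0.0452) were lower, with 30.4 to 74.0 CPM against 146.8 to 361.5 CPM. The summed macrophage, lymphocyte, and neutrophil markers overlapped between these classes, at 60.7 to 432 against 86.4 to 530 CPM, 8.88 to 24.4 against 2.9 to 35.5 CPM, and 0.496 to 4.78 against 3.3 to 12.6 CPM. Of these 8 calls between the tumor classes, 7 (all but Sox9) were lost with at least 1 library left out. The paired fit kept Cps1, Sox9, and Kdr (adjusted p = 0.0426, 0.00402, and 0.0175) and lost Serpina1c (0.0571), Alb (0.108), Pecam1 (0.181), Des (0.0829), and Pdgfrb (0.114). No marker of these lists was at 0 in all libraries of a group. In Ctnnb1 tumors against livers, 3 of 8 hepatocyte markers (Cps1, Serpina1c, and Tat), 3 of 7 stellate cell and fibroblast markers (Des, Dcn, and Lrat), and 1 of 5 cholangiocyte markers (Sox9) were lower by edgeR's test, where 3.2% of all genes were. The median log2 fold changes of these lists were -0.81, -1.56, and -1.78, and their summed levels in livers were 34870 to 59360, 58.4 to 265.8, and 51.1 to 134.4 CPM. In tumors against livers, Tat was lower (-1.75, adjusted p = 0.0164) and Pecam1 higher (1.59, adjusted p = 0.0179) by edgeR's test. The part of these cell types in the values of Egfr, Erbb3, and Hbegf was not tested.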

How the data were processed

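Per the labels and the study's methods, poly(A) RNA was sequenced as paired ends, with Subread alignment to mm10 plus mCherry and gene counts from featureCounts 1.6.4 by the authors. The deposited values are raw counts of reads per gene symbol, without normalization. The sequencing run of each library, the strand setting, and how multimapping reads were handled are not given in the sources used here, so no run term was fitted. Genotype and tissue came from the labels, and mutation classes follow the study. A p21+/Tert liver titled with a number that no tumor shares was paired with T-HCC662, because its deposited table is numbered like that tumor and the other livers are paired by their titles. The other tumors of the study were not analysed here. The members and the gene lists were chosen with earlier results of these data known.

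Counts were tested with edgeR 4.0.16 in R 4.3.3 (TMM, filterByExpr, quasi-likelihood F test) over all genes, with Benjamini-Hochberg adjustment at 0.05. Tumors were compared with livers in 1 fit of 12 libraries, genotypes in a fit of 4 groups, and mutation classes in a fit of 4 classes. CPM were computed on library sizes scaled by TMM, and own-liver differences used log2(CPM + 1). The SE is the log2 fold change divided by the square root of F. The depth of 14571716 to 26170661 counts per library leaves genes near 1 CPM with few reads, and floors of 3 counts cover counting error only. Named beside the members are at most 4 genes per list of smallest p among those past the threshold, and the 3 genes of most similar pattern for Egfr, Erbb3, and Errfi1. Promoters are RefSeq's on GRCm38.p6, where 7 of the 10 members matched, motifs were searched on both strands, and gene positions are GENCODE's on GRCm38.

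The replicate numbers pair samples of the same mouse. Over 13822 genes, deviations of tumors from their group correlated with those of their own livers at r of 0.086 to 0.459 (median 0.33, across genes, which are not independent), and with those of other mice's livers at a median of -0.075. Alternatives were DESeq2 1.42.0, a fit with mouse as a block (the paired fit), no filter beyond 1 count per gene, RLE size factors, only the libraries compared, each library left out, and a pseudocount of 0.1 CPM. The fits were tested on simulated data.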

Additional observations from a re-analysis of the deposited data

Results flagged for a closer look

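Among 49 tests of whether the highest or lowest library of a group lay far from the rest, 8 were past Dixon's 95% value, where chance gives about 1 in 20 for a single test. The groups share libraries, so the tests are not independent and no excess over that share is claimed. Egfr in T-HCA992 (610.3 CPM) stood apart among all tumors and among the tumors without a Ctnnb1 mutation. Btc in T-HCC941 (36.93 CPM) stood apart among all tumors and among the p21+/Tert tumors, and Hbegf in the same tumor (18.09 CPM) among the p21+/Tert tumors. Errfi1 in TCi-HCA984 (1711 CPM) stood apart among all tumors and among those without a Ctnnb1 mutation, and the liver of that mouse also had the highest Errfi1 of the livers. Areg in the liver of the TCi-HCA984 mouse (0.194 CPM, from 4 reads) stood apart because the other 5 livers had 0 reads.

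The level in the tumors differed between Ctnnb1 tumors and the other tumors for Egfr (-2.45 on the log2 scale, adjusted p = 0.0147) and Hbegf (-3.53, adjusted p = 0.00965) in edgeR's quasi-likelihood test. This contrast holds no liver term, so it does not test the change from liver to tumor. The fit with the mouse as a block compares that change between the classes. There the differences were -2.24 and -2.87, with adjusted p of 0.194 and 0.0884 in edgeR's test, so neither change was called different.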

How the results depend on the processing

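In tumors against livers DESeq2 called 5 members and 2677 genes, and edgeR with the mouse as a block called 3 members and 2356 genes. DESeq2 called 2088 genes in p21+/Tert mice, 2 members and 366 genes in p21+/TertCi mice, and 14 genes between the genotypes. In p21+/TertCi mice edgeR called 2 genes when every gene with at least 1 count was kept and 1 gene with RLE size factors. For Ctnnb1 tumors against livers DESeq2 called 2109 genes and the block left 0 members. For Ctnnb1 tumors against other tumors DESeq2 called 3081 genes, the block 0 members and 441 genes, and a fit of only the libraries compared 839 genes. For the Egfr and Hras tumors against those with neither DESeq2 called 103 genes. The block moved no other count of members by more than 1.5 times. The cause was not tested in any of these.

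With each library left out, the count of members and of genes ranged from 3 to 4 and 863 to 1988 in tumors against livers (863 without the liver of the T-HCC662 mouse and 942 without T-HCC941), from 0 to 3 and 240 to 1192 in p21+/Tert mice, from 0 to 0 and 0 to 7 in p21+/TertCi mice, and from 0 to 0 and 0 to 0 between genotypes. It ranged from 0 to 5 and 410 to 1329 for Ctnnb1 tumors against livers, from 4 to 4 and 1815 to 3617 for the other tumors against livers, from 0 to 2 and 437 to 2121 for Ctnnb1 against other tumors, and from 0 to 0 and 0 to 5 for Egfr and Hras tumors against those with neither.

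Of 1645 recomputed differences of named genes, 1508 stayed on their side of the threshold, 128 lost a call, 9 gained one, and 0 called differences changed sign. Chromosome medians moved by less than their spread with a pseudocount of 0.1 CPM. The classes hold as few as 2 tumors, and Areg, Egf, Erbb2, and Ereg rest on few reads.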

Other observations

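Across the 12 libraries, the genes whose log2(CPM + 1) followed Egfr most closely were Ambp (Pearson r = 0.888), Kctd1 (0.846), and the cytochrome P450 gene Cyp2a12 (0.838). Ambp, which encodes a plasma protein of hepatocytes, had a median of 2969 CPM in livers and 2646 CPM in tumors. Erbb3 was followed most closely by Xpo7 (0.913), Atxn7 (0.909), and Pde8a (0.899), and Errfi1 by Lurap1l (0.953), Zfp874a (0.927), and Tmem38b (0.906). These correlations are descriptions over libraries of 2 tissues that share mice, picked as the highest of 13822 genes.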
